A study of Mus musculus with 24 samples.

Results

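Oxidative phosphorylation runs on 4 electron-carrying complexes, on the mobile carrier cytochrome c and on ATP synthase, which is counted as complex V. The nuclear genes for their subunits were chosen here by symbol among the protein-coding rows of the count table. The symbols were those that start with Ndufa, Ndufb, Ndufc, Ndufs or Ndufv, Uqcr, Cox4 to Cox8 or Atp5, together with Sdha to Sdhd, Cyc1 and Cycs, and without the Ndufaf assembly factors. Of 49585 rows, 87 genes met this rule. Complex I held 38 of them, complex II 4, complex III 9, cytochrome c 1, complex IV 18 and complex V 17. A choice by name also takes in Ndufab1, an acyl carrier protein that mitochondrial fatty acid synthesis uses too, Cox7a2l, a factor of supercomplexes, and Atp5s, an accessory protein of ATP synthase.

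The cells were 24 single burst-forming unit-erythroid (BFU-E) cells, early progenitors committed to red cell production, from C57/Bl6J fetal liver at embryonic day 14.5. Mature red cells were lysed, and cells carrying lineage antigens, Sca-1, CD16/32 or CD41 were removed with magnetic beads. Staining for CD117 (Kit), CD71 and CD24 guided the sort of what was left into single wells, and each cell became a Smart-seq2 library of polyadenylated RNA without molecular identifiers. There was 1 group, no treatment and no control, and nothing in the labels ties a cell to an embryo, so the 24 cells are treated as 1 sample, every spread below is between cells, and no test between conditions was possible.

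Complex I takes electrons from NADH and complex II from succinate. Complex III passes them through cytochrome c to complex IV, which reduces oxygen, and the proton gradient built on the way drives complex V. A small core of the subunits is encoded in mitochondrial DNA and the rest in the nucleus, so each complex except complex II is built from the products of both genomes. Several subunits of complex IV come in tissue forms made by separate genes, with a form found in most tissues and others known from heart and skeletal muscle, lung or testis. In erythroid progenitors mitochondria also carry out steps of haem synthesis.

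Total counts ran from 876983 to 2155010 per cell, and 4767 to 7349 genes had at least 5 counts. Levels below are counts per 1000000 counts of a cell (CPM), and detection in a cell means 5 or more counts of the gene. A count of 0 allows up to 3 counts, or 1.39 to 3.42 CPM depending on the cell. This limit covers the sampling of reads only, not transcripts lost before sequencing. In 5 cells (1, 9, 19, 23 and 24) Klf1, the erythroid regulator, lay under 10 CPM, against a median of 411 CPM over all 24 cells, and the erythropoietin receptor Epor lay at or under 1.62 CPM. Gata1 was at or under 2.85 CPM in cells 1, 9, 19 and 24 and at 886 CPM in cell 23. Gata2 was at 48.7 CPM in cell 1 and at or under 3.42 CPM in the others of the 5. The progenitor markers Kit and Myb went the other way, being detected in all 24 cells. In these 5 cells Kit ran from 84.2 to 465 CPM and Myb from 100 to 543 CPM. The myeloid granule gene Mpo stood at 7227 CPM in cell 1 and 2507 CPM in cell 23. It stood at 738 CPM in cell 9, 275 in cell 19 and 7.31 in cell 24. Cell 3, with Klf1 at 343 CPM, had Mpo at 269 CPM. Of the other myeloid markers, Prtn3 stood at 1192 CPM in cell 1 and 198 CPM in cell 23. It stood at 161 CPM in cell 9 and 99.9 CPM in cell 24, and had no counts in cell 19. Ctsg stood at 354 CPM in cell 1 and 2.28 CPM in cell 23. Elane had no counts in any cell. Genes chosen after their values were seen also set 2 of the 5 cells apart. Rag1 and Il7r, known from lymphoid progenitors, stood at 245 and 169 CPM in cell 19. Trbc1 and Tcf7 stood at 735 and 132 CPM in cell 24. Cell 10 carried the most of the hepatocyte genes Alb and Afp, at 316 and 376 CPM. Of the megakaryocyte markers, Itga2b, the gene of CD41, was detected in 16 cells. Its median over 24 cells was 72.0 CPM and its maximum 542 CPM in cell 12. Gp9 was detected in 9 cells and Gp1bb in 4, and Pf4 had no counts in any cell. All 4 macrophage markers and all 4 muscle markers had a count of 0 in every cell. The 5 cells with little Klf1 go against their label in part, and the main results are given with and without them.

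Nearly the whole respiratory chain was transcribed in nearly every cell. Of the 87 genes, 80 were detected in at least 12 cells, where 26.1% of the 21734 protein-coding rows were, and 65 were detected in all 24. The 7 that were not (Ndufa4l2, Cox4i2, Cox6a2, Cox7a1, Cox7b2, Cox8b and Cox8c) were all alternative forms of a subunit whose main form was detected in every cell. Detection in 12 cells was met by 37 of 38 complex I genes, all 4 of complex II, all 9 of complex III, cytochrome c, 12 of 18 genes of complex IV and all 17 of complex V.

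**Figure D1:**
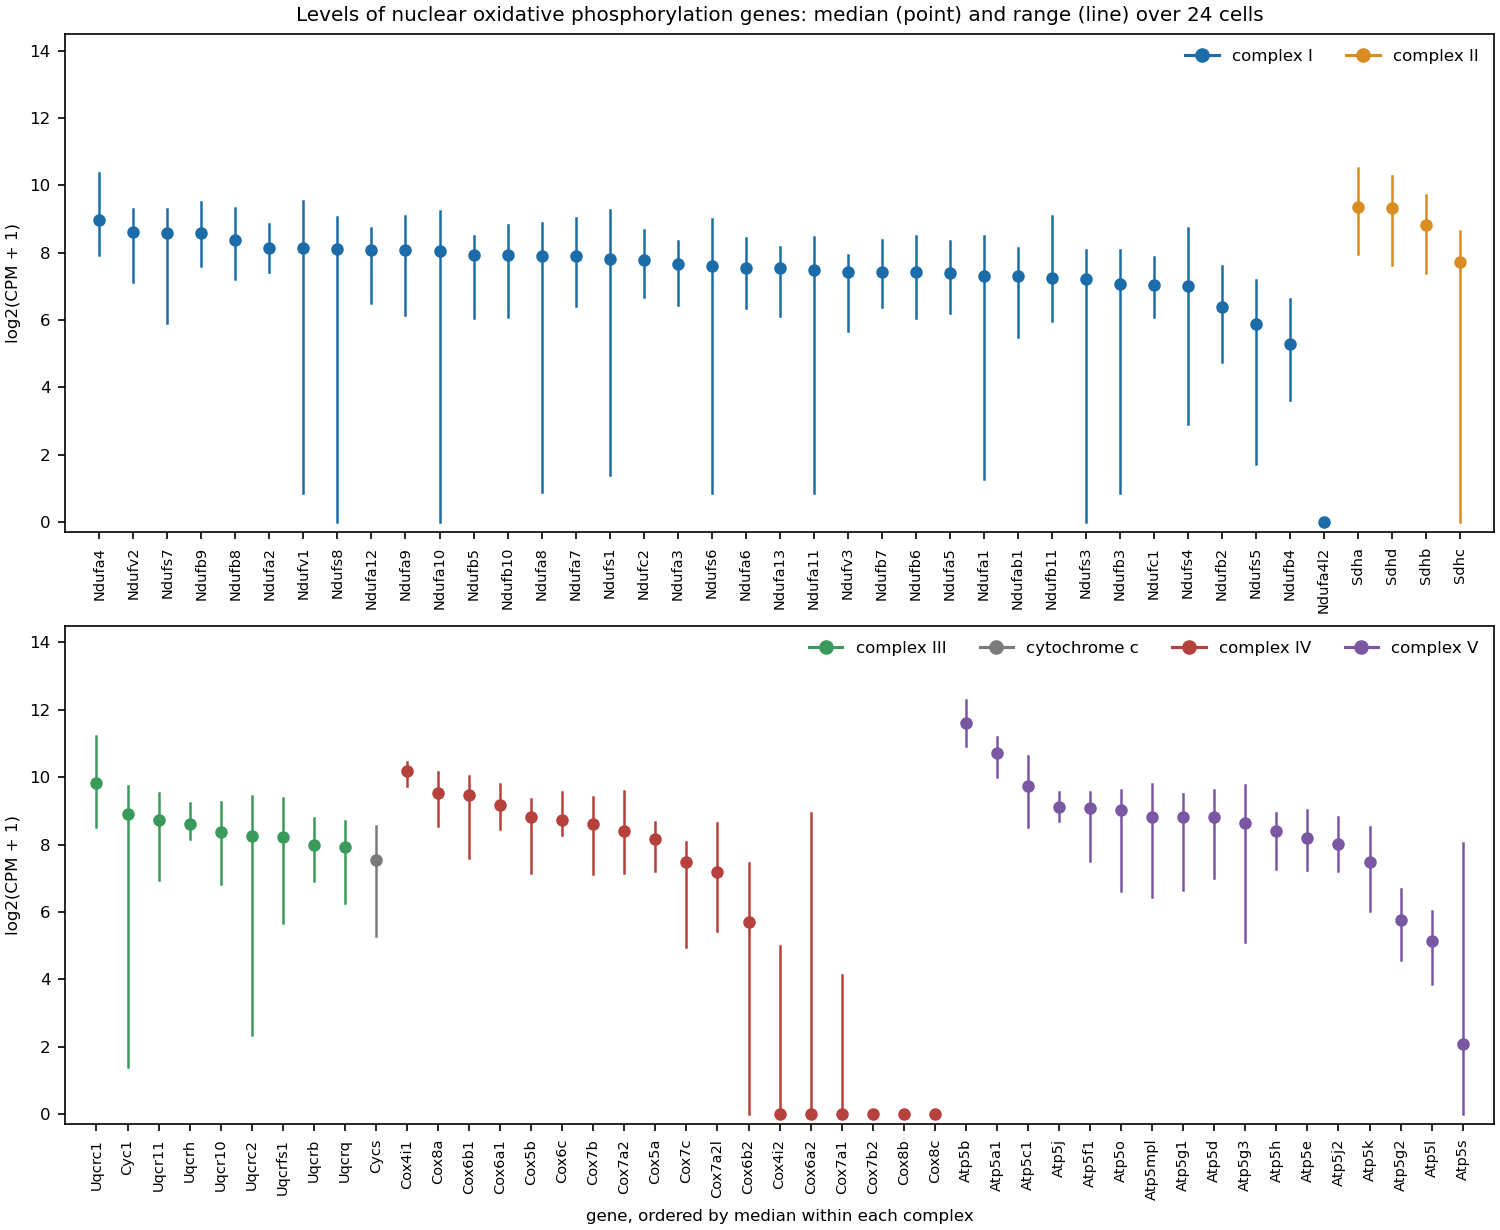
Level of 86 of the 87 genes as log2(CPM + 1), with the median (point) and the range (line) over 24 cells, ordered by median within each complex. Atp5b had the highest median (3154 CPM), and lines that reach towards 0 mark genes not detected in at least 1 cell.

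Together the 87 genes took 3.03% ± 0.326 (SD over 24 cells) of all counts. Their summed level was lowest at 19097 CPM in cell 19, had a median of 30151 CPM, and was highest at 34306 CPM in cell 11. Cell 24 came next to the lowest, at 23783 CPM, and the other 22 cells all lay at 28840 CPM or more. The low sums were therefore in 2 of the 5 cells with little Klf1, while cells 1, 9 and 23 had 32379, 29800 and 28848 CPM. Over the 19 cells with Klf1 at 10 CPM or more the sum was 31224 ± 1729 CPM, a coefficient of variation of 5.54%, against 10.8% over all 24. Complex V gave 34.1% of the sum, complex I 28.0%, complex IV 18.2%, complex III 12.5%, complex II 6.62% and cytochrome c 0.622%.

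The complexes differed in how evenly they were held from cell to cell. Complex I summed to 8469 ± 1077 CPM and complex IV to 5529 ± 505 CPM, with coefficients of variation of 12.7% and 9.13%. Complexes II and III varied more, at 2006 ± 441 and 3774 ± 829 CPM or 22.01% and 21.95%. Over the 19 cells the coefficients were 6.71% for complex I, 19.2% for complex II, 19.5% for complex III, 6.38% for complex IV and 10.8% for complex V. The spread of complex III rested on cell 4. Without it the coefficient was 16.2% over the other 23 cells and 11.8% over 18 of the 19 (3790 ± 447 CPM), near that of complex V. A sum over more genes averages more of the spread of each gene, and complexes I and V have far more members than complex II. The highest complex III sum, 6551 CPM, was in cell 4, and the other 23 cells ran from 1707 to 4529 CPM.

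**Figure D2:**
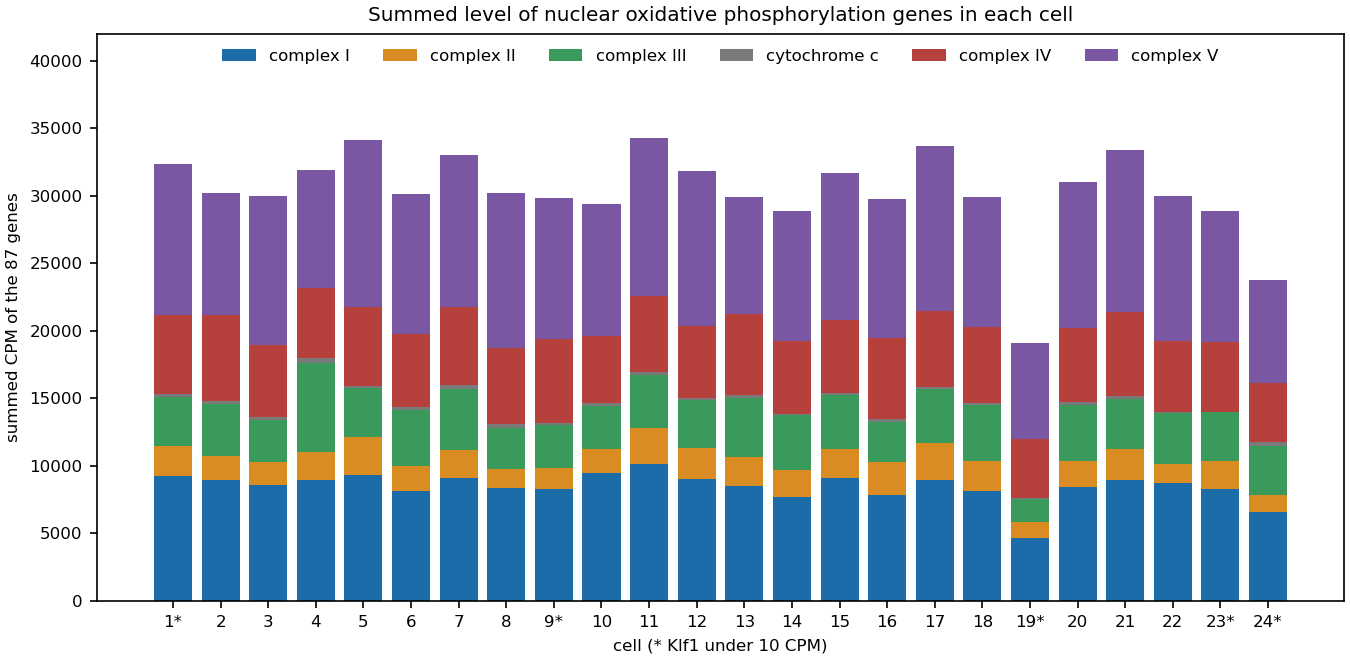
Summed CPM of the 87 genes in each of 24 cells, stacked by complex, with an asterisk at the 5 cells whose Klf1 lay under 10 CPM. Cell 19 (19097 CPM) and cell 24 (23783 CPM) stand below the rest, which begin at 28840 CPM.

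In complex I, core subunits hold the flavin and the iron-sulfur clusters, and those named here were each detected in at least 22 cells. Ndufv2 averaged 400 ± 128 CPM and Ndufs7 347 ± 129. Ndufv1, which binds NADH, averaged 288 ± 154, Ndufs8 267 ± 103, Ndufs1 252 ± 150 and Ndufs3 147 ± 70.1 CPM. These core genes thus lay within the same range as the accessory subunits. Reads of Ndufs1 cannot be told from those of Eef1b2, which overlaps it on the opposite strand at 897 CPM, because the libraries were not stranded. Levels of different genes were compared per length, as counts per kilobase of merged exons scaled in each cell to the same sum as CPM. On that scale complex I was led by the accessory subunits Ndufa2 at 1369 ± 333, Ndufa4 at 1063 ± 461 and Ndufb9 at 1028 ± 309. Ndufa4 is grouped with complex I by its symbol, although its protein is now placed in complex IV. Its CPM ran from 241 in cell 19 through a median of 501 to 1330 in cell 9.

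All 4 genes of complex II, the succinate dehydrogenase shared with the citric acid cycle, were expressed. Sdha, the flavoprotein, ran from 250 CPM through a median of 657 to 1466 CPM. Sdhb, the iron-sulfur subunit, ran from 168 in cell 19 through 451 to 834 CPM. The membrane anchors Sdhc and Sdhd averaged 203 ± 83.6 and 656 ± 261 CPM. Per length Sdhd led at 1391 ± 552, before Sdhb at 572 ± 186 and Sdha at 416 ± 162, and the SDs of Sdhb and Sdha overlapped. Sdhc had a count of 0 in cell 19 and was detected in the other 23 cells.

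In complex III the highest gene by CPM was Uqcrc1, a core protein that faces the matrix. It ran from 365 CPM through a median of 906 to 2387 CPM in cell 4, the cell with the highest complex III sum. The electron-carrying subunits Cyc1 (cytochrome c1) and Uqcrfs1 (the Rieske protein) averaged 494 ± 186 and 323 ± 153 CPM. Per length the small subunits led, with Uqcr11 at 1765 ± 603, Uqcr10 at 1550 ± 566 and Uqcrh at 895 ± 179. Uqcrh was among the most even genes, between 285 and 605 CPM in all 24 cells. Cycs, the somatic cytochrome c, stood lower than most subunits, at 188 ± 84.5 CPM and 145 ± 66.1 per length, and ran from 38.1 CPM in cell 19 to 374 CPM in cell 4. The testis form Cyct had no counts in any cell.

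By merged exons complex IV held the 3 highest levels per length of the 87 genes. Cox8a stood at 3169 ± 777 per length, Cox6b1 at 2542 ± 711, Cox6a1 at 2140 ± 468 and Cox4i1 at 1943 ± 262. Cox4i1, the main form of the subunit 4 that spans the membrane, was the most even of all the members, between 852 and 1403 CPM with a coefficient of variation of 13.6%. With the shortest principal transcript in place of merged exons as the length, a choice added after the values were seen, Cox4i1 came first of these 4 at 2414, before Cox8a at 2130, and Atp5b of complex V was above both at 2588. With the longest transcript Atp5b was again first at 3258, before Cox4i1 at 2959 and Cox8a at 2681. Which gene leads therefore depends on the length used.

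Complex V had the 2 highest genes by CPM. Atp5b, the catalytic beta subunit (chr10:128083273-128090391, plus strand, GRCm38), ran from 1962 in cell 24 through a median of 3154 to 5062 CPM in cell 22. Atp5a1, the alpha subunit, averaged 1686 ± 374 CPM, and Atp5c1, the gamma subunit of the central stalk, 860 ± 270. Per length they stood at 1959 ± 444, 1406 ± 313 and 1175 ± 364. All 3 were detected in every cell, and their ranges over cells overlapped per length. Atp5s was the exception of this complex, being detected in 12 of 24 cells with a median of 3.20 and a maximum of 265 CPM in cell 23.

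Taking the median member of each complex in each cell, the level per length was 648 ± 133 for complex III, 493 ± 111 for complex II, 472 ± 83.9 for complex V, 336 ± 59.1 for complex IV, 334 ± 59.1 for complex I and 145 ± 66.1 for cytochrome c. Complexes II and V, and complexes IV and I, differed by less than their SDs. With the shortest principal transcript as the length, the values were 799 ± 162 for III, 478 ± 109 for II, 893 ± 165 for V, 516 ± 96.3 for IV, 370 ± 54.5 for I and 94.2 ± 42.8 for cytochrome c, so that complex V came above complex III. Members of 1 complex also differed, least in complexes II and III. Among the genes detected in at least 12 cells the highest level per length was 5.33 times the lowest in complex III, 8.54 times in II, 23.6 times in IV, 31.7 times in I and 132 times in V. With the shortest principal transcript these ratios were 5.71, 8.33, 12.6, 27.3 and 84.0, and with the longest transcript 4.45, 8.33, 15.5, 27.1 and 286.

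The low end of these ranges held genes with and without near-identical pseudogenes. By merged exons the lowest of complex V was Atp5l, which has such copies. Ndufb2 and Cox6b2, the lowest of complexes I and IV by that length, and Atp5s, the next lowest of complex V, have none. With the shortest principal transcript the lowest of complex I was Ndufb4, which has such copies, and that of complex V was Atp5s. Transcripts of 23 of the 80 detected genes matched an annotated pseudogene at 95% identity or more over at least 100 bases. Their median level was 188 CPM, against 300 CPM for the 57 without such a match. The 4 with a match of 100% were Ndufb4 at 44.2, Atp5g2 at 57.02, Atp5l at 36.6 and Cox7c at 168 CPM. Reads that fit a gene and its copy equally can be dropped or split in counting, so the levels of these 23 genes are uncertain. Whether that happened here was not tested.

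Tissue forms of complex IV were, with 1 exception, at or near 0. Cox4i1 stood at 852 to 1403 CPM in every cell, while Cox4i2, its lung form, had 37 counts in cell 1 and 4 or fewer in the others. Cox7a2 averaged 374 ± 136 CPM, and its muscle form Cox7a1 had 24 counts in cell 10 and none in the other 23. Cox7b2, Cox8b and Cox8c had no counts at all beside 14637 counts of Cox7b and 27574 of Cox8a. Their main forms thus held at least 99.97% and 99.99% of the counts of their subunit (exact binomial 95% lower limits over the pooled reads, which cover counting error only). Ndufa4l2, a form known to rise in low oxygen, likewise had no counts beside 19676 of Ndufa4. Its gene overlaps Shmt2 on the opposite strand, which was at 446 CPM. How reads in such an overlap were counted is not given, so this 0 is less certain than those of the other forms.

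Cox6a2, the heart and muscle form of subunit 6a, was carried by 1 cell. Cell 19 had 601 counts, or 487 CPM, cell 1 had 20 counts, cell 4 had 3, and the other 21 had none. In cell 19 the main form Cox6a1 stood at 475 CPM, within the 352 to 888 CPM of the 24 cells. Its share of the 2 forms per length was 48.6% there and 99.6% or more in each of the 19 cells with Klf1. The muscle markers Acta1, Myh6, Myl2 and Ckm had no counts in cell 19 or in any other cell. Cell 19 also carried Siglech, known from plasmacytoid dendritic cells, at 224 CPM, which had no counts in the other 23 cells. Rag2 stood there at 199 CPM and Flt3, a receptor of early lymphoid and dendritic progenitors, at 975 CPM. Flt3 also stood at 353 CPM in cell 9, 186 CPM in cell 1 and 34.1 CPM in cell 24. Siglech, Rag2 and Flt3 were picked with their values in view, and their relation to Cox6a2 was not tested.

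Cox6b2 was the 1 alternative form found in most cells. It is known as the testis form of subunit 6b, which sits on the outer face of complex IV near cytochrome c. Of the 24 cells, 18 had it, with a median of 50.7 and a maximum of 173 CPM in cell 20. Cox6b1 was detected in all 24 cells, from 194 CPM in cell 19 through a median of 706 to 1045 CPM. Per length Cox6b1 made up 94.97% ± 4.77 of the pair, and 82.0% in the cell where its share was lowest. With the shortest principal transcript it was 90.5%, and by counts 92.5% ± 6.89, with 74.4% in cell 20. No gene annotated in GRCm38 overlaps Cox6b2 (chr7:4751792-4753094, minus strand), and no annotated pseudogene matched it.

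Cox6b2 was low in the cells low in Klf1. In the 5 cells with little Klf1 it had 0, 1, 0, 3 and 23 counts (cells 1, 9, 19, 23 and 24), at most 18.7 CPM. In the 19 other cells it was detected in 17, at 20.5 to 173 CPM, and had no counts in cells 10 and 12. The 2 sets of cells overlapped only through those 2 cells. Over 24 cells Cox6b2 and Klf1 had Spearman rho 0.66 and Pearson r 0.58, and r 0.71 without the 2 cells farthest from the median of Cox6b2. Over the 19 cells rho was 0.39, and within the 3 plate columns of 8 cells it was 0.95, 0.40 and 0.55. With Cox6b1 the rho of Cox6b2 was 0.076, with Gata1 0.35, with Epor 0.41 and with total counts 0.34. These relations were among 28 looked at, the pair was picked after its values were seen, and the cells share a sort, a plate and a library preparation, so they are given as descriptions without a test.

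**Figure D3:**
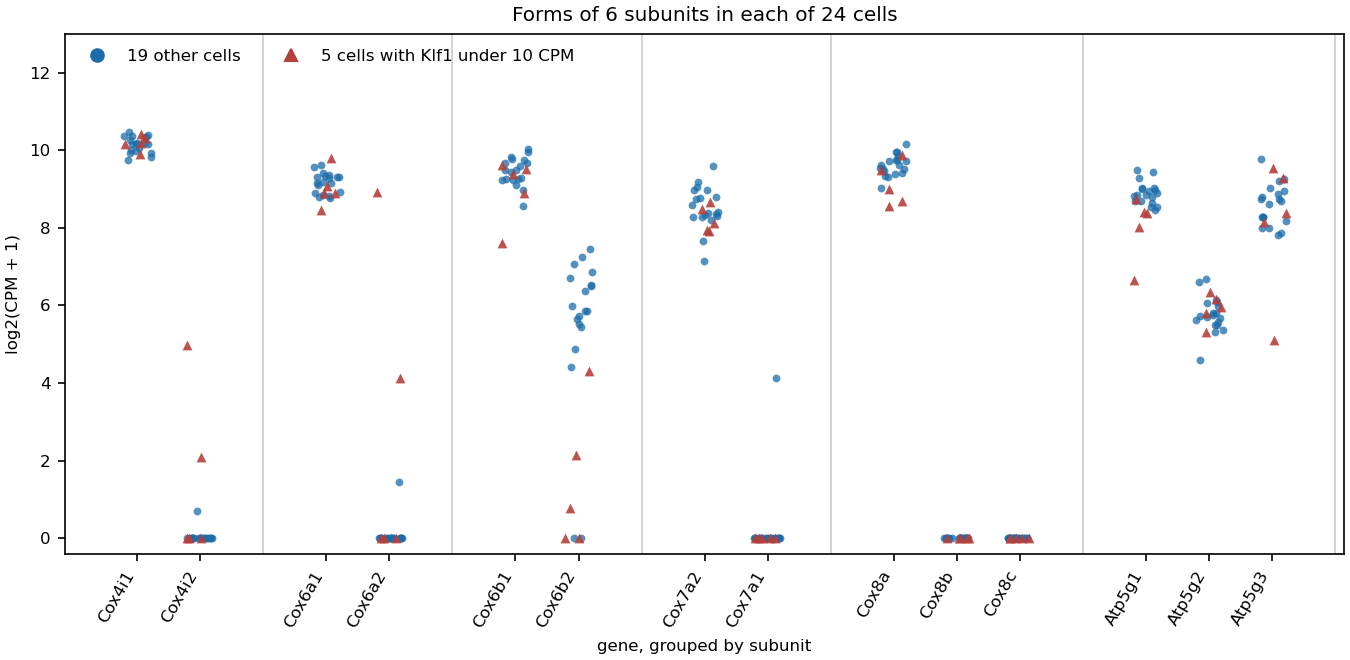
Level of each form of 6 subunits as log2(CPM + 1) in each cell, with the 5 cells under 10 CPM of Klf1 as triangles. Cox6b2 was detected in 17 of the 19 other cells, while Cox6a2 stood high in cell 19 only (487 CPM).

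The upstream sequences of 2 such pairs are shown because each pairs a gene expressed in all cells with a form that was low or at 0. They are the bases before the RefSeq start of the gene on its own strand (GRCm38.p6), shortened where an annotated exon begins, in lower case since none of these stretches holds the NRF1, YY1, ERR, GABP or GATA letters given further on, and with CCAAT and Sp letters left unmarked. The GABP letters do occur just beyond the stretches of both main forms, in annotated exons, at −28 from the start for Cox6b1 and at −5 and 32 for Cox8a, and they were not found in the windows of Cox6b2 and Cox8b. Their positions are chr7:30626152-30626364 (minus) for Cox6b1, chr7:4753095-4753225 (minus) for Cox6b2, chr19:7217617-7217866 (minus) for Cox8a and chr7:140900447-140900696 (minus) for Cox8b.
Cox6b1 upstream: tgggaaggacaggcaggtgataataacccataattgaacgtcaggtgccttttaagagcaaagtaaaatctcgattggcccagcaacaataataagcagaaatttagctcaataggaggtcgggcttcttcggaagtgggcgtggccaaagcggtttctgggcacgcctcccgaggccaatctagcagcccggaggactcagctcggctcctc
Cox6b2 upstream: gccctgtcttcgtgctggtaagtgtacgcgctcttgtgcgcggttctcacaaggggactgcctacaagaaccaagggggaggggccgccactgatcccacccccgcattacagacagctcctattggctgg
Cox8a upstream: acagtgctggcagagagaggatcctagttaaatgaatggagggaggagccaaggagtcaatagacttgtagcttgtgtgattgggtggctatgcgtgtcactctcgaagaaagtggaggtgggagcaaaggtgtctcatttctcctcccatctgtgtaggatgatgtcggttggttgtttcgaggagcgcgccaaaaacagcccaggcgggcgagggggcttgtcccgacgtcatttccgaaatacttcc
Cox8b upstream: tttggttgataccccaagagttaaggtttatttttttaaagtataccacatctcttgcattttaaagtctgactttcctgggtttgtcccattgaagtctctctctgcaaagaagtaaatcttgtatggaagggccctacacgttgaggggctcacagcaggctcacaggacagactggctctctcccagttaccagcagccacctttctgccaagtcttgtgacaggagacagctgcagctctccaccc
The Cox6b1 stretch has 10 CG pairs in 213 bases and that of Cox6b2 7 in 131. The Cox8a stretch has 11 in 250 bases and that of Cox8b 1. Over the equal windows of 300 bases around the start described further on, the counts of CG pairs are 17 for Cox6b1, 10 for Cox6b2, 19 for Cox8a and 2 for Cox8b. Over these windows Cox6b2 and Cox8b have fewer CG pairs than their main forms. Among other pairs, Cox7a1 had 7 against 20 for Cox7a2. Cox7b2, with no counts in any cell, went the other way, with 10 against 5 for Cox7b. Fewer CG pairs were thus not common to all the low forms.

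Subunit c, which forms the rotating ring of ATP synthase, is encoded by 3 genes with the same mature protein, and all 3 were expressed. By counts Atp5g1 held 49.8% ± 10.7 of the subunit, Atp5g3 43.1% ± 11.5 and Atp5g2 7.07% ± 4.02. Atp5g1 ran from 100 CPM in cell 19 to 717 CPM, Atp5g3 from 33.2 CPM in cell 19 to 867 CPM, and Atp5g2 from 23.03 to 102 CPM. The shares depend on length, as Atp5g1 held 30.4% ± 8.75 by merged exons, 15.9% by the longest transcript and 52.1% by the shortest principal transcript. Atp5g2 was the lowest of the 3 by counts and with each of these lengths, and it has a pseudogene copy at 100% identity. Atp5g1 has a copy too, at 99.76% identity, while Atp5g3 has no such match. The annotated copies held 1306 counts for Atp5g1 and 139 for Atp5g2. The part of the copies in the shares was not tested.

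Most members varied less between cells than other genes of their level. The measure was the variance of log2(CPM + 1) over cells minus the trend of that variance with mean level over the 8266 genes detected in at least 6 cells. The variance lay under the trend for 62 of the 80 members, where it did for 51.0% of all 8266 genes. At the levels of Atp5b, Atp5a1 and Cox4i1 the fitted trend was negative, so no variance could lie under it. These genes therefore counted as above the trend, although their SDs of log2(CPM + 1) were only 0.34, 0.33 and 0.20. The median difference from the trend was −0.55 for the members and −0.039 for all genes. The median SD of log2(CPM + 1) was 0.58 for the 80 members and 2.45 for all genes. Among genes of 100 CPM or more it was 0.57 for 73 members and 1.48 for 2236 genes. Without the 5 cells with little Klf1 the members' median difference was −0.48.

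The largest variances above the trend belonged to Ndufa10 (2.23), Cyc1 (1.85) and Ndufs1 (1.80). Ndufa10, an accessory subunit of complex I, ran from 0 in cell 19 through a median of 265 to 606 CPM. Cyc1 had 1.62 CPM in cell 19 and 262 to 860 CPM in the 19 cells with Klf1. Cell 19 thus gave the lowest value of both. Ndufs1 stood at 1.65 CPM in cell 1 and 2.64 CPM in cell 3, and reached 612 CPM. The smallest were Atp5l (−6.06), Ndufb4 (−5.50) and Atp5g2 (−4.75), all with a pseudogene at 100% identity and a mean under 60 CPM. At such low levels the trend is high, so that an even gene there falls further under it than an even gene of high level can.

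**Figure D4:**
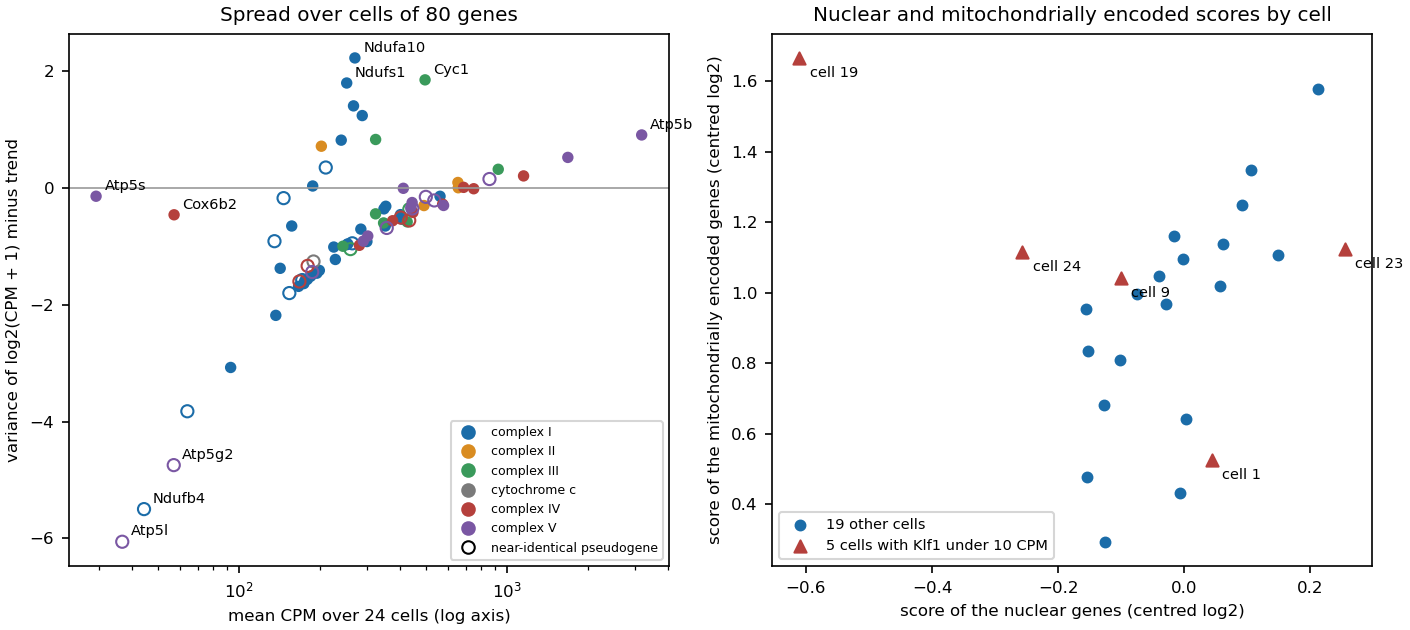
Left, variance over cells minus the trend for 80 genes against mean CPM (log axis), open circles marking genes with a near-identical pseudogene. Right, score of the nuclear genes against that of the mitochondrially encoded genes in 24 cells, where cell 19 has the lowest nuclear and the highest mitochondrially encoded score.

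Cell 19, singled out after its values were seen, was lower than the others in most of these genes. Of the 80 members 27 (33.8%) had their lowest level there, against 9.36% of the 5962 genes detected in at least 12 cells and 19.99% of the 2236 of them at 100 CPM or more. In cell 19, 11 of the 80 were not detected (Ndufa10, Ndufa11, Ndufb3, Ndufs3, Ndufs6, Ndufs8, Ndufv1, Sdhc, Cyc1, Cox6b2 and Atp5s). No other cell had more than 3 not detected. In cell 19 that is 13.8% of the members, against 40.1% of the 5962 genes and 22.5% of the 2236. Against the median of the other 23 cells, 71 of the 80 members (88.8%) were lower in cell 19, where 62.7% of the 5962 genes and 64.5% of the 2236 were. The members' median difference in log2(CPM + 1) was −0.91, against −0.97 over the 5962 genes and −0.53 over the 2236. Lower by at least 1 were 36 members (45.0%), 49.8% of the 5962 genes and 42.1% of the 2236. More of the members than of all genes were thus lower in cell 19, while the share lower by at least 1 was near that of all genes. By complex the median difference was −1.04 for III, −0.97 for II, −0.93 for I, −0.71 for V and −0.64 for IV. The members highest there relative to the others were Cox7a2l (1.51) and Ndufs5 (1.01). Cell 19 had 4800 genes detected, and cell 23, with fewer genes detected (4767) and the lowest total count, had 2 members missing and a sum of 28848 CPM.

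Co-variation of the members over cells was weak and became weaker without a few cells. The mean Spearman rho over the 3160 pairs of 80 members was 0.073, against 0.0089 over all 5962 genes detected in at least 12 cells and 0.016 over the 2236 of them at 100 CPM or more. It was 0.028 without cell 19 and 0.011 without the 5 cells with little Klf1, against 0.0024 over all genes in those 19 cells. Single pairs ran from −0.63 to 0.67, and 63.4% were above 0 in 24 cells and 51.7% in 19. Pairs within a complex had a mean of 0.074 and pairs between complexes 0.073, and over 19 cells 0.017 and 0.0086. Complex I supplies 666 of the 910 pairs within a complex, with a mean of 0.065 over 24 cells and 0.0075 over 19. Pairs within complexes II, III and V had higher means of 0.12, 0.12 and 0.10 over 24 cells and 0.064, 0.062 and 0.053 over 19, and complex IV had 0.074 and 0.015. All genes of a cell share its depth and its total, and the pairs share genes, so no test was made.

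The 5 closest pairs over 24 cells joined different complexes in all but 1 case. Ndufb10 and Atp5g1 had rho 0.67, Ndufa10 and Sdhb 0.67, Ndufs6 and Cox6a1 0.65, Cycs and Cox7c 0.65, and Atp5h of the peripheral stalk and Atp5j2 of the membrane part of complex V 0.64. Over the 19 cells these were 0.51, 0.44, 0.74, 0.46 and 0.61. They are the top of 3160 pairs. Cytochrome c was closest to complex III, its electron donor, with a mean rho of 0.27 over 9 pairs in 24 cells and 0.18 in 19 cells. Cell 4 was highest and cell 19 lowest in both. The sums of complexes I and V had rho 0.61 and r 0.72 over 24 cells, 0.44 and 0.38 over 19 cells, and r 0.42 without the 2 cells farthest from the median of complex I. The sums of complexes III and V had rho −0.090 and r 0.050 over 24 cells, and −0.39 and −0.42 over 19.

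**Figure D5:**
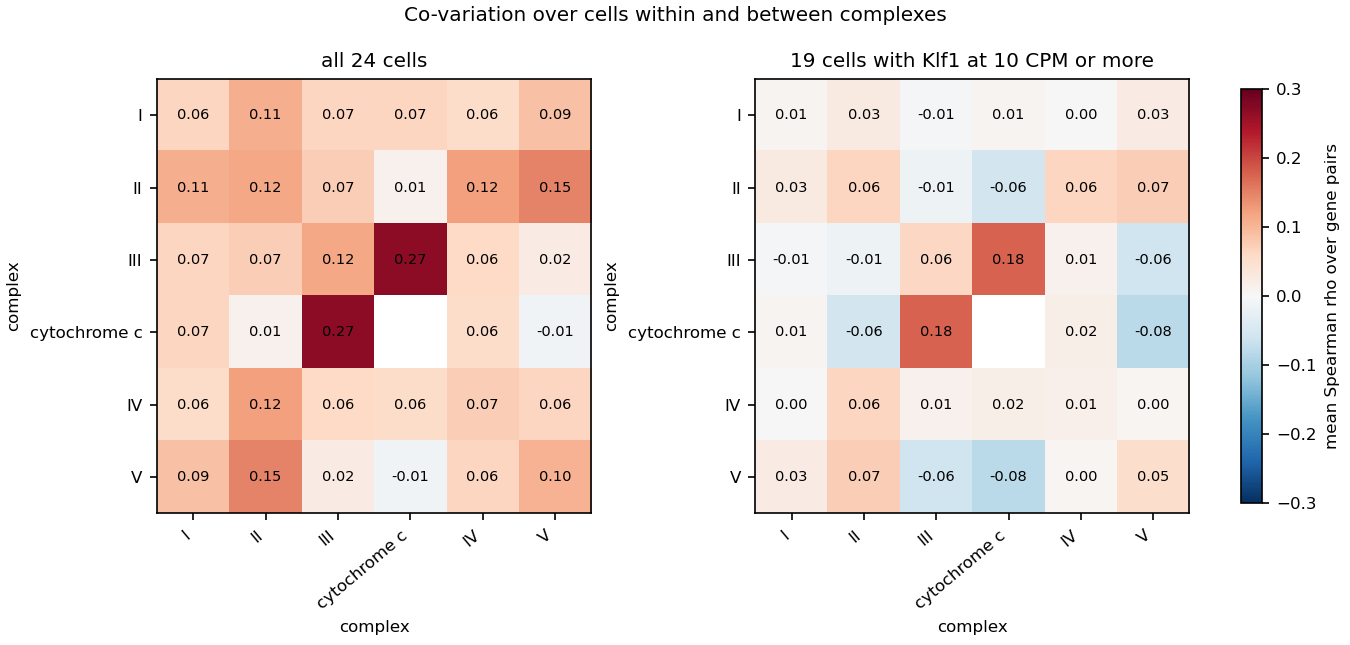
Mean Spearman rho over gene pairs within and between complexes, over 24 cells (left) and over the 19 cells with Klf1 at 10 CPM or more (right). Cytochrome c with complex III is the highest in both (0.27 and 0.18), and most other values fall towards 0 on the right.

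By CPM, assembly factors were detected at lower levels than the subunits. Of 48 assembly factors, which insert cofactors and join subunits, 40 were detected in at least 12 cells. Their median was 67.6 CPM, against 283 CPM over the 80 members so detected. The highest by CPM were Coa5 at 196 ± 124, Coa3 at 168 ± 135 and Cox14 at 140 ± 86.1. Tmem70, which helps build ATP synthase, followed at 138 ± 74.5 CPM. Per length by merged exons Cox14 led at 506, before Coa3 at 497 and Uqcc2 at 426, and Coa5 stood at 98.4. The mean pairwise rho of the assembly factors was 0.041, and 0.018 over the 19 cells. Of 13 regulators 9 were detected in at least 12 cells. Myc averaged 845 ± 447 CPM, Nrf1, which binds promoters of many respiratory genes, 141 ± 106, and Tfam, which packs and transcribes mitochondrial DNA, 112 ± 97.1. Gabpa was detected in 11 cells, Esrra in 7 and the coactivator Ppargc1b in 6, and Ppargc1a had no counts in any cell.

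Atpif1, which blocks ATP synthase from running in reverse and is known to be needed for haem synthesis in erythroid cells, was abundant. It was detected in all 24 cells, from 135 CPM in cell 19 through a median of 909 to 1450 CPM in cell 12. The 5 cells with little Klf1 lay between 135 and 548 CPM and the 19 others between 479 and 1450 CPM, so the 2 sets overlapped little. Atpif1 and the summed CPM of the 87 genes had rho 0.71 and r 0.72 over 24 cells, rho 0.72 and r 0.61 over 19, and r 0.54 without the 2 cells farthest from the median sum. Within the 3 plate columns rho was 0.62, 0.69 and 0.67. With the members' score, which weights each gene equally after centring on genes of like level, the rho of Atpif1 was 0.30.

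Against the 13 mitochondrially encoded subunits the result depended on the measure. Their sum was 21897 ± 3651 CPM, and the nuclear sum was 1.43 ± 0.315 times as high. It was 0.677 times as high in cell 19, which had the highest mitochondrially encoded sum (28194 CPM), and 1.11 to 2.01 times in the 19 cells with Klf1. The sums had rho −0.12 and r −0.28 over 24 cells and rho 0.20 over 19. The mitochondrially encoded score used the 11 of the 13 genes that were detected in at least 12 cells, each weighted equally. The scores had rho 0.37 and r 0.0087 over 24 cells and rho 0.71 and r 0.71 over 19. Within the plate columns rho was −0.14, 0.83 and 0.57. Without the 2 cells farthest from the median nuclear score r was 0.49. Each score was also lower in cells with more genes detected: rho was −0.39 for the members and −0.76 for the mitochondrially encoded genes over 24 cells, and −0.62 and −0.71 over 19. The part of this in the relation between the scores was not tested. Levels of mt-Co2, mt-Co3, mt-Atp6 and mt-Nd4l were only 3.38, 4.69, 3.72 and 0.445 CPM beside 6846 for mt-Co1, and each of these 4 has an annotated pseudogene at 100% identity. So does mt-Nd4, which stood at 1051 CPM, while mt-Atp8, at 1.10 CPM, has no such copy. Of these low genes, mt-Co2, mt-Co3 and mt-Atp6 are among the 11 of the score. All of the low genes enter the mitochondrially encoded sum, and the ratio to it, as counted. The part of the copies in these low levels was not tested.

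With glycolysis no steady relation was seen. The members' score and that of 14 glycolytic genes had rho −0.14 and r −0.075 over 24 cells and −0.16 and −0.13 over 19, and r −0.21 without 2 cells. Within the plate columns rho was 0.69, −0.48 and −0.38. The glycolytic genes had a mean pairwise rho of 0.11 over 24 cells and 0.043 over 19, so that they too co-varied less without the 5 cells. Mitochondrial ribosomal proteins had 0.098 and 0.065, and cytosolic ribosomal proteins 0.14 and 0.15. With total counts the members' score had rho −0.25 and r −0.11 over 24 cells, −0.36 and −0.35 over 19, and −0.48, −0.12 and −0.24 within the columns. Outside the lists, the genes whose order over cells was most like the members' score, of 5601, were Flcn (rho 0.71), Oaz1 (0.70) and Fam207a (0.64), with 0.62, 0.56 and 0.50 over the 19 cells.

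Windows around the start of the genes were searched for short motifs known to be bound by regulators of respiratory genes and by GATA factors. RefSeq windows of 300 bases, 250 before and 50 after the start, were matched for 70 of the 87 genes, and the 72 windows of genes detected in at least 12 cells were set beside the 5880 windows of all genes so detected. Motifs were read on both strands and may overlap. The NRF1 letters GCGCATGC were in 15.3% of the members' windows, against 6.62% of all detected genes' windows and 2.71% of all 32851 windows. The YY1 letters AAGATGGC were in 13.9%, 5.88% and 2.75%, and the letters AAGGTCA of oestrogen-related receptors (ERR) in 11.1%, 3.27% and 4.72%. The members' shares of these 3 motifs rest on 11, 10 and 8 genes, were above those of detected genes and were not tested. The GABP letters CCGGAAG were in 22.2%, 24.1% and 8.86%. The Sp letters GGGCGG went the other way, in 41.7% of the members' windows against 65.4% of detected genes' windows and 35.7% of all windows. The CCAAT letters were in 41.7%, 37.8% and 37.4%, and the TATA letters TATAAA in 8.33%, 6.33% and 13.6%. The GATA letters AGATAAG were in none of the 72 windows and in 1.65% of those of detected genes. A match is a description of the letters and not a bound site.

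The matches that lie with 15 bases on each side outside annotated exons are shown as single examples, with the motif in capitals as it reads on the gene's strand. None of these motifs was common to the members. The GABP letters, the most frequent of those shown, were in 22.2% of the members' windows, no more often than in those of detected genes. All 10 YY1 matches lay in annotated exons, most of them 22 to 38 bases after the start, and are not shown. Positions, in GRCm38.p6 with the strand, are chr17:56717687-56717726 (plus) for Ndufa11, chr15:82354352-82354389 (minus) for Ndufa6, chr2:73911357-73911393 (minus) for Atp5g3, chr6:39592369-39592405 (plus) for Ndufb2, chr4:123718393-123718429 (minus) for Ndufs5, chr2:174464182-174464218 (minus) for Atp5e, chr9:44920933-44920969 (minus) for Atp5l, chr4:40279632-40279668 (minus) for Ndufb6 and chr10:80406866-80406902 (minus) for Uqcr11.
Ndufa11 NRF1: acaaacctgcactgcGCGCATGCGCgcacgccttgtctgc
Ndufa6 NRF1: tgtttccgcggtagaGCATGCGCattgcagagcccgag
Atp5g3 ERR: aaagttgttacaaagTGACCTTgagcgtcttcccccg
Ndufb2 ERR: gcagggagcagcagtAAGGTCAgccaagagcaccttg
Ndufs5 ERR: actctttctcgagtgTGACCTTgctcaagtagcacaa
Atp5e GABP: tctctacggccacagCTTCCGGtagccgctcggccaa
Atp5l GABP: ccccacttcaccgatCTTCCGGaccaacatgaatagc
Ndufb6 GABP: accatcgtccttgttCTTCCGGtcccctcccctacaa
Uqcr11 GABP: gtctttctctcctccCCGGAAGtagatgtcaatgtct
The genes shown come from complexes I, III and V, and 3 of them, Ndufs5, Atp5l and Uqcr11, were among the members with a near-identical pseudogene. In Ndufa11 matches on both strands overlap, so the capitals run on. Ndufa11 averaged 188 ± 80.9 CPM and Ndufa6 195 ± 62.7 CPM. Uqcr11, with the GABP letters, averaged 432 ± 143 CPM, and Ndufb2, with the ERR letters, 93.0 ± 47.7 CPM.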

How the data were processed

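The deposited values are unnormalised counts of reads in 24 columns, 1 to a cell, which the authors made with STAR 2.4 and featureCounts on GRCm38, per the submitters' processing notes. Neither the options of the counting nor the annotation release is given in these sources. The libraries were not stranded, per the labels' protocols, so reads of overlapping genes on opposite strands cannot be told apart, and no read carries a molecular identifier. Gene symbols, types, exons and lengths came from GENCODE M21, which matched 49326 of the 49585 rows. The 259 unmatched rows held 0.0295% of counts.

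CPM was computed over all rows. Scores are means of log2(CPM + 1) over the genes detected in at least 12 cells, minus, in each cell, the average of genes of like level (20 bins). The variance trend is a lowess curve of span 0.3 (statsmodels 0.14.6). TMM factors came from edgeR 4.0.16, used for scaling only. Pseudogene matches came from BLAST 2.17.0. Python 3.11.15 with pandas 2.3.3 made the rest, and the measures of spread and co-variation were tested on simulated data.

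Total counts of 876983 to 2155010 per cell set the precision, and 24 cells of 1 group allow no test. The members, the gene lists, the motifs and the threshold of 10 CPM for Klf1 were chosen with earlier results of these data known. Every member could be named, and 1 member that enters the sums and counts is not reported by name here. Values are given in full for the 3 highest per length in each complex, all tissue forms, the 3 largest and 3 smallest variances against the trend, the 5 closest pairs, genes of the fixed lists and the 3 other genes most like the score. Other choices made after values were seen are marked. Alternatives covered the detection limit, scaling, gene length, pseudocount, thinning of cells, the reading of the name rule, each cell left out, the cells low in Klf1 and the plate columns.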

Additional observations from a re-analysis of the deposited data

How the results depend on the processing

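No paired analysis was possible because the cells form 1 group. Of 102 alternatives, not counting single cells left out, 84 counted as not moved. The limit was the spread between cells or between the 3 plate columns. For the count of detected genes it was a fixed ratio to the main count instead. The 84 include shares fixed at 100% because the other form had no counts. The relations to mitochondrially encoded genes and to glycolysis were judged against wide spreads, of 0.51 and 0.65 in rho. A rho of 0.71 in place of 0.37 for the former, without the cells low in Klf1, thus counted as not moved. The count of detected genes stayed between 77 and 82, and the summed level between 29935 and 33269 CPM, with a mean of 29434 CPM within plate column 1. Gene length moved levels and shares: the median level per length of complex V was 608 with the longest transcript and 893 with the shortest principal transcript, complex III 799 and complex IV 516 with the latter, and the share of Atp5g1 was 15.9%, 52.1% and, by counts, 49.8%. The median variance against the trend was −0.33 with a pseudocount of 10 CPM, −0.36 with no filter, −0.52 with a filter of 12 cells, −0.48 without the cells low in Klf1, and −0.57 to −0.51 with each cell left out. Mean co-variation was 0.14 by Pearson r, 0.034 with values centred by bins of mean expression, 0.011 without the cells low in Klf1 and 0.019 within plate column 2, and 0.028 without cell 19 to 0.079 without cell 4. Scores without centring gave rho 0.46 with total counts in place of −0.25 and 0.047 with mitochondrially encoded genes in place of 0.37. Within plate column 1 the relations to mitochondrially encoded genes, glycolysis and depth were −0.14, 0.69 and −0.48. Apart from the lengths, the alternatives' own construction and the cells left out, the cause was not tested. By the sampling of reads alone, depth limits the forms at 0 counts to under 1.39 to 3.42 CPM in a cell.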
